A study of Rattus norvegicus with 12 samples.

Results

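The genes described here mark the ependymal lining of the brain ventricles and the choroid plexus, and their transcripts were counted in striatal RNA of rats that had self-administered methamphetamine (MA). The set was defined by name, as the rows of the count table whose symbol is in a list of 41 genes, 30 of motile cilia and ependymal cells and 11 of the choroid plexus. Of these, 32 are among the 17337 gene symbols of the table, 21 of the 30 ciliary genes and all 11 choroid plexus genes. The other 9 (*Rsph4a*, *Dnah5*, *Dnah9*, *Dnah11*, *Hydin*, *Armc4*, *Pifo*, *Spag17* and *Stk33*) have no row under these symbols and were not analysed here.

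Each of the 12 libraries came from the striatum of 1 adult male wild-type Sprague–Dawley rat, and all 12 rats had self-administered MA for 16 days. MA12 rats (n = 4) were kept for 12 h and MA24 rats (n = 4) for 24 h after the last session, and a further group (n = 4) is called non-addicted in the labels. What defined the non-addicted rats and when their tissue was taken is not given in the sources used here. Saline rats and rats taken at the end of a session were not analysed here, so no group is free of MA. The striatum borders the lateral ventricle, and whole striata were used. The numbers of all 4 MA24 rats and of 2 MA12 rats (4N and 7N) end in N, those of the 4 non-addicted rats and of MA12 rats 21 and 31 do not, and the meaning of N is not given in the sources used here. All libraries carry the same batch label.

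Ependymal cells are a single layer of epithelium along the ventricles whose tufts of motile cilia move cerebrospinal fluid. A motile cilium beats through dynein arms, radial spokes and a central pair of microtubules on a doublet scaffold, and *Foxj1*, with the RFX factors *Rfx2* and *Rfx3*, switches on the genes for these parts. The choroid plexus is a separate epithelium that hangs in the ventricle, secretes cerebrospinal fluid and makes very large amounts of transthyretin (*Ttr*).

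Total counts per library lay between 17908962 and 23850284, and the group ranges overlapped (17908962 to 23051969 in MA12, 19690496 to 23850284 in MA24, 19043710 to 23718399 in non-addicted rats). Levels are given as CPM, counts divided by the TMM-scaled library size, and a count of 0 allows up to 3 counts, which is 0.126 to 0.168 CPM in these libraries. Counting noise did not account for the spread within groups, where chi-square divided by its degrees of freedom was 9.72 to 28.0 between pairs of rats. The labels name separate rats, and p-values measure the spread between them. The table has no gene lengths, so levels are compared between rats and not between genes. In whole tissue, fewer cells of a type and less RNA per cell cannot be told apart.

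The labels of the set fitted these libraries unequally. Ciliary genes were measured well: 20 of the 21 in the table had a mean count above 4, and *Foxj1* had between 261 and 1096 counts in every library. *Spag16*, a protein of the central pair, was the exception, with 0 to 6 counts. Of the choroid plexus genes, *Otx2*, *Prlr*, *Sostdc1* and *Ttr* were at or near 0 in most libraries. *Otx2*, the transcription factor of choroid plexus epithelium, had 2 counts in MA12 rat 21 and 0 in the other 11 libraries. The prolactin receptor gene *Prlr* had 0 to 6 counts and *Sostdc1*, a secreted antagonist of BMP and Wnt signalling, had 0 to 4. *Ttr* had 329 counts in non-addicted rat 9, 17 in non-addicted rat 12 and 0 to 6 in the other 10 libraries. *Igfbp2* (120 to 267 counts), *Kcne2* (38 to 70), *Folr1* (20 to 152) and *Clic6* (13 to 89) were counted in every library.

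Promoter windows from RefSeq (build GRCr8, 250 bases before to 50 after the start site) were read for 28 of the 41 genes, among them 17 of the 20 ciliary genes tested. They were searched on both strands for 3 short motifs, the RFX half-sites GTTGCC and GTTGCTA and the forkhead core TGTTTAC. Both half-sites begin with GTTGC, and with these letters no 2 of the 3 motifs can share a base. Of these 17 ciliary genes, 12 held at least 1 half-site. Among all 22 listed ciliary genes with a window, GTTGCC was in 12 (54.5%) and GTTGCTA in 9 (40.9%), against 13.1% and 3.82% of the 27457 genes with a window. The forkhead core was in 2 of the 22 (*Spef2* and *Mlf1*, 9.09%), against 4.13% of all genes. Of 6 choroid plexus genes with a window, 1 (*Aqp1*) held GTTGCC and none held either of the other motifs. The half-sites were also frequent in 2 lists of related genes described below. GTTGCC was in 39.5% of 86 other genes of motile cilia and in 44.4% of 36 genes of primary cilia and intraflagellar transport. GTTGCTA was in 27.9% and 13.9% of these lists. A match is a description of the letters and does not show that a factor binds there.

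The 5 measured ciliary genes whose window held 2 half-sites close together are shown because both half-sites can be read in 1 short stretch. Each line gives the strand of the gene 5′ to 3′, with half-sites in capitals.
Spef2, GRCr8 chr2:60421828-60421860, minus strand: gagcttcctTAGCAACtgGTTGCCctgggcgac
Rfx3, GRCr8 chr1:235122526-235122557, minus strand: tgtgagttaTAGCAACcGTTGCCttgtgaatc
Tekt2, GRCr8 chr5:143907739-143907769, minus strand: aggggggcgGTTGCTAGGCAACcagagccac
Dnai2, GRCr8 chr10:100258951-100258981, plus strand: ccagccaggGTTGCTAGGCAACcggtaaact
Drc1, GRCr8 chr6:31779244-31779284, minus strand: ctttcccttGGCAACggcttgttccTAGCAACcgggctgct
In *Tekt2* and *Dnai2* the half-sites adjoin, in *Rfx3* and *Spef2* they are separated by 1 and 2 bases, and in *Drc1* by a longer stretch. In these 5 windows the first base of the pair lies between 126 bases before the start site (*Rfx3*) and 1 base before it (*Spef2*).

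The full windows of *Spef2*, *Crb2* and *Dnah1* are shown because these are the ciliary genes with a window that passed the threshold in a comparison described here. Capitals mark the 3 motifs.
Spef2, GRCr8 chr2:60421801-60422100, minus strand: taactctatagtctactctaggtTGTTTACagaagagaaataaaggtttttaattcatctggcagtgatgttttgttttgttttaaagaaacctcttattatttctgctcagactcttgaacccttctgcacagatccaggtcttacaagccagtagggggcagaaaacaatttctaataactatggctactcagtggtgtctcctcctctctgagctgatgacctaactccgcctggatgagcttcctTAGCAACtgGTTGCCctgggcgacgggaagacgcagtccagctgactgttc
Crb2, GRCr8 chr3:41951650-41951949, plus strand: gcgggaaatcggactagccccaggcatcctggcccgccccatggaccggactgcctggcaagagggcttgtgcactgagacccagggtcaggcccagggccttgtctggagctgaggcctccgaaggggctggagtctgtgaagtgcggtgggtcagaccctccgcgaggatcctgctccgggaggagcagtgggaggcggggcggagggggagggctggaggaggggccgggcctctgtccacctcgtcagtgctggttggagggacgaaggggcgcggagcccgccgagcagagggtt
Dnah1, GRCr8 chr16:6523397-6523696, minus strand: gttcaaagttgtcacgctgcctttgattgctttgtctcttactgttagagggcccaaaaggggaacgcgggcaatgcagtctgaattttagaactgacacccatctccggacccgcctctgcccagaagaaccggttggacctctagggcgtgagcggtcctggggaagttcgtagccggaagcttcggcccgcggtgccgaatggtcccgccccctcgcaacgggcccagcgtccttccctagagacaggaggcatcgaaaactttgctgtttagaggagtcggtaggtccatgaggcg
*Spef2* held all 3 motifs, and the windows of *Crb2* and *Dnah1* held none of them. The 5 ciliary genes tested whose window held no half-site (*Dnah1*, *Dnai1*, *Ccdc40*, *Ak7* and *Crb2*) had log2 fold changes of 0.26 to 1.80 in non-addicted vs. MA24 (median 1.13), and the 12 with a half-site had 0.15 to 1.75 (median 0.65). The ranges with and without a half-site overlapped, and whether the motifs bear on the size of the difference was not tested. *Foxj1*, *Rsph1* and *Enkur*, which also passed in this comparison, have no window and are in neither set.

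Across the 12 rats the ciliary genes varied together. For each gene log2 CPM was centred on its mean over the 12 rats, and the centred values were averaged over the 20 ciliary genes with a mean count above 4. Non-addicted rat 11 had the highest mean, at 0.93, followed by non-addicted rat 12 at 0.64, MA12 rat 31 at 0.55, MA12 rat 21 at 0.39 and non-addicted rat 9 at 0.29. The remaining 7 rats were below 0, from non-addicted rat 13 at -0.22 down to MA24 rat 16N at -0.63. The highest and the lowest rat differed by 1.56 on this log2 scale, a 2.96-fold range. Group means were 0.41 ± 0.49 in non-addicted rats, -0.03 ± 0.58 in MA12 rats and -0.38 ± 0.19 in MA24 rats (SD, n = 4). Non-addicted rats (-0.22 to 0.93) and MA24 rats (-0.63 to -0.23) did not overlap, although the nearest rats of the 2 groups were almost level. The MA12 rats spanned nearly the whole range, from -0.58 to 0.55.

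**Figure D1:**
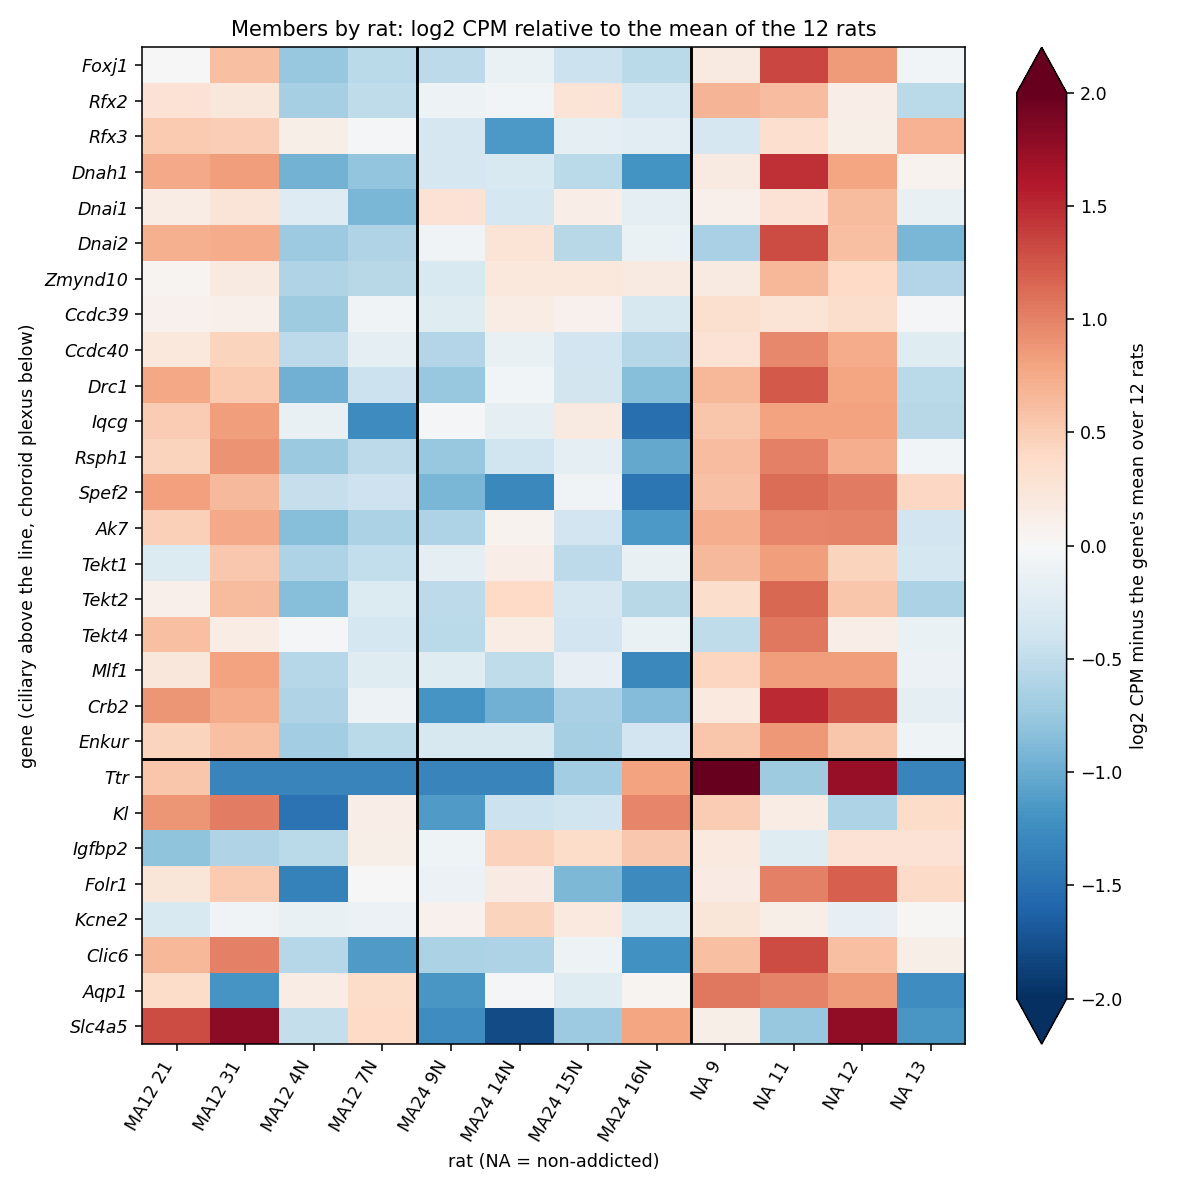
Heat map of log2 CPM, centred on each gene's mean over the 12 rats, for the 28 members with a mean count above 4 (rows, 20 ciliary genes above the line and 8 choroid plexus genes below) in each rat (columns, MA12, MA24 and non-addicted from left to right). Most ciliary rows are red in MA12 rats 21 and 31 and in non-addicted rats 11 and 12, and blue in MA12 rats 4N and 7N and MA24 rat 16N. The choroid plexus rows are less alike.

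The likeness within the block was summarised by Pearson's r over the 12 libraries, as a description of libraries that also share their depth, tissue piece and overall composition. Over the 190 pairs of ciliary genes the median r was 0.725, with a range of -0.147 to 0.965. With the mean of the other ciliary genes, r was 0.910 or higher for 8 of the 20, with *Rsph1* (0.967), *Ccdc40* (0.964), *Dnah1* (0.963), *Drc1* (0.960), *Ak7* (0.959) and *Foxj1* (0.944) at the top. *Rfx3*, which is also made in cells without motile cilia, was lowest at 0.353. Over the 28 pairs of choroid plexus genes the median r was 0.178. *Clic6*, an intracellular chloride channel protein, and *Folr1*, the folate receptor that carries folate into cerebrospinal fluid, followed the ciliary genes closely (r = 0.941 and 0.817), whereas *Ttr* (0.302), *Kcne2* (0.035) and *Igfbp2* (-0.353) did not.

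Within MA12 the block split by the kind of rat number. In all 20 ciliary genes tested, both rats without N (21 and 31) were above both rats with N (4N and 7N), a pattern that 22.4% of all genes tested showed. The median difference between the 2 pairs was 0.93 on the log2 scale, or 1.91-fold, with *Dnah1* at the top (1.67) and *Rfx3* (0.47) and *Ccdc39* (0.48) at the bottom. With 2 rats against 2 no test of this difference was made. The kind of number coincides with the group in the other rats, since all non-addicted rats are numbered without N and all MA24 rats with N. In non-addicted vs. MA24 the group and the kind of number therefore cannot be told apart.

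Ciliary genes were higher in non-addicted rats than in MA24 rats. All 20 ciliary genes tested had a log2 fold change above 0, with a median of 0.85 (0.15 to 1.80), against a median of 0.00 over all 10744 genes tested. Past the threshold (Benjamini-Hochberg adjusted p below 0.05 over all genes tested and a fold change of at least 1.5, edgeR quasi-likelihood test) were 6 of the 20, all higher in non-addicted rats: *Crb2*, *Foxj1*, *Rsph1*, *Dnah1*, *Enkur* and *Spef2*. Of all genes tested 0.456% passed in either direction and 0.326% passed as higher in non-addicted rats. An unadjusted p below 0.05 was reached by 15 of the 20 (75%), against 17.5% of all genes, and in 7 of the 20 all 4 non-addicted rats were above all 4 MA24 rats, against 5.10% of all genes. None of the 8 choroid plexus genes tested passed the threshold, 6 of them had a log2 fold change above 0, and *Folr1* and *Clic6* did not overlap between the groups.

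The 6 calls rested on the settings of the test and on single rats. On simulated counts the share of false calls was above the nominal level with the filter on low variance, which was used here. Without that filter none of all 12640 genes tested passed. No member passed when the filter on low variance was left out (*Crb2* and *Foxj1* adjusted p = 0.0823 and 0.0833), when all 3 groups shared one fit, or when non-addicted rat 11, non-addicted rat 12, MA24 rat 15N or MA24 rat 16N was left out, whereas 11 passed with DESeq2, 3 without MA24 rat 9N, 9 without MA24 rat 14N and 14 without non-addicted rat 13.

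*Foxj1*, the forkhead factor that commits a cell to motile cilia, stood at 24.2, 54.0, 38.5 and 20.6 CPM in non-addicted rats 9, 11, 12 and 13, at 21.3, 32.3, 12.6 and 14.7 CPM in MA12 rats 21, 31, 4N and 7N, and at 14.8, 19.4, 15.9 and 14.7 CPM in MA24 rats 9N, 14N, 15N and 16N. All 4 non-addicted rats were above all 4 MA24 rats, and non-addicted rats 11 and 12 were also above every MA12 rat. The log2 fold change in non-addicted vs. MA24 was 1.08 (SE 0.22, adjusted p = 0.0354, edgeR), a 2.11-fold difference. In non-addicted vs. MA12 it was 0.75 (SE 0.27, adjusted p = 0.248) and in MA24 vs. MA12 -0.32 (SE 0.21, adjusted p = 0.362), neither past the threshold. The RFX factor *Rfx3* had 11.3, 11.0, 8.42 and 7.56 CPM in MA12 rats 21, 31, 4N and 7N, against 6.15, 3.45, 6.83 and 6.65 CPM in MA24 rats 9N, 14N, 15N and 16N. The 2 groups did not overlap, and the log2 fold change in MA24 vs. MA12 of -0.73 (SE 0.22, adjusted p = 0.0570, edgeR) did not pass. *Rfx3* passed in this comparison with DESeq2, with edgeR's likelihood ratio test and without MA12 rat 7N. In non-addicted rats *Rfx3* was at 6.15, 9.81, 8.49 and 12.6 CPM, with its highest value in rat 13, in which the ciliary mean was lowest for that group. *Rfx2* ranged from 3.34 to 8.59 CPM over the 12 rats and passed in no comparison.

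Among the dynein motors, *Dnah1*, a heavy chain of the inner dynein arms, showed the split most clearly. It stood at 9.90, 24.1, 15.1 and 9.16 CPM in non-addicted rats 9, 11, 12 and 13, at 14.8 and 15.6 CPM in MA12 rats 21 and 31, at 4.47 and 4.97 CPM in MA12 rats 4N and 7N, and at 6.88, 7.00, 5.96 and 3.75 CPM in MA24 rats 9N, 14N, 15N and 16N. No MA24 rat reached the lowest non-addicted rat, and MA12 rats 4N and 7N lay within the MA24 range. The log2 fold change was 1.29 in non-addicted vs. MA24 (SE 0.26, adjusted p = 0.0354, edgeR), 0.53 in non-addicted vs. MA12 and -0.76 in MA24 vs. MA12, of which only the first passed. The intermediate chain genes of the outer arms, *Dnai1* and *Dnai2*, passed in no comparison, with log2 fold changes of 0.26 and 0.47 in non-addicted vs. MA24.

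The 5 genes tested that build and space the dynein arms had log2 fold changes above 0 in non-addicted vs. MA24, and none passed in any comparison. *Drc1*, of the nexin-dynein regulatory complex, had a log2 fold change of 1.14 in non-addicted vs. MA24 (SE 0.27, adjusted p = 0.0611, edgeR), and *Ccdc40*, which with *Ccdc39* forms the ruler that sets the repeat of the axoneme, had 0.93 (SE 0.22, adjusted p = 0.0580). *Iqcg*, also of the regulatory complex, had 0.78. *Ccdc39* (0.31) and *Zmynd10* (0.15), a factor for the preassembly of dynein arms, differed least of the 5, and of all ciliary genes tested they had the smallest ranges over the 12 rats, 2.08-fold and 2.41-fold between the lowest and the highest rat. The widest ranges were those of *Spef2* (6.96-fold), *Crb2* (6.75-fold) and *Dnah1* (6.43-fold).

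Of the radial spoke and central apparatus genes, 2 of the 3 tested passed in non-addicted vs. MA24. *Rsph1*, a radial spoke head protein, had 9.999, 13.1, 10.7 and 6.19 CPM in non-addicted rats 9, 11, 12 and 13, 8.84, 12.1, 3.81 and 4.46 CPM in MA12 rats 21, 31, 4N and 7N, and 3.79, 4.88, 5.60 and 3.11 CPM in MA24 rats 9N, 14N, 15N and 16N. The lowest non-addicted rat was just above the highest MA24 rat, and the log2 fold change was 1.20 (SE 0.23, adjusted p = 0.0354, edgeR). *Spef2*, a central apparatus protein, had 2.24, 3.30, 3.12 and 1.98 CPM in the non-addicted rats, 2.65, 2.34, 1.03 and 1.07 CPM in the MA12 rats, and 0.731, 0.542, 1.39 and 0.475 CPM in the MA24 rats, in the same order of rats. It rose 3.37-fold in non-addicted vs. MA24 (log2 fold change 1.75, SE 0.39, adjusted p = 0.0497, edgeR), at the edge of the threshold and on 9 to 27 counts per MA24 rat. *Ak7*, an adenylate kinase of the ciliary axoneme, lay just outside, with a log2 fold change of 1.13 (SE 0.26, adjusted p = 0.0516). The microtubule inner proteins *Tekt1*, *Tekt2* and *Tekt4* had log2 fold changes of 0.63, 0.70 and 0.48, and none passed.

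*Crb2*, an apical polarity protein of the Crumbs family, had 4.06, 10.2, 8.49 and 3.07 CPM in non-addicted rats 9, 11, 12 and 13, 6.61, 5.98, 2.31 and 3.27 CPM in MA12 rats 21, 31, 4N and 7N, and 1.51, 1.78, 2.21 and 1.90 CPM in MA24 rats 9N, 14N, 15N and 16N. Every MA24 rat was below every rat of the other groups. *Crb2* was 3.48-fold higher in non-addicted than in MA24 rats (log2 fold change 1.80, SE 0.33, adjusted p = 0.0283, edgeR). *Enkur*, a protein inside the ciliary doublet microtubules, had 14.6, 18.2, 14.6 and 9.42 CPM in the non-addicted rats, 13.6, 15.2, 6.12 and 6.83 CPM in the MA12 rats and 7.96, 7.99, 6.27 and 7.65 CPM in the MA24 rats, in the same order. The lowest non-addicted rat was above the highest MA24 rat, with a log2 fold change of 0.92 (SE 0.19, adjusted p = 0.0354, edgeR). *Mlf1* had 5.10, 6.76, 6.81 and 3.44 CPM in the non-addicted rats, 4.42, 6.64, 2.49 and 3.16 CPM in the MA12 rats and 3.14, 2.61, 3.34 and 1.48 CPM in the MA24 rats. Its groups did not overlap in non-addicted vs. MA24 either, but the log2 fold change of 1.06 (SE 0.28, adjusted p = 0.0882, edgeR) did not pass.

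**Figure D2:**
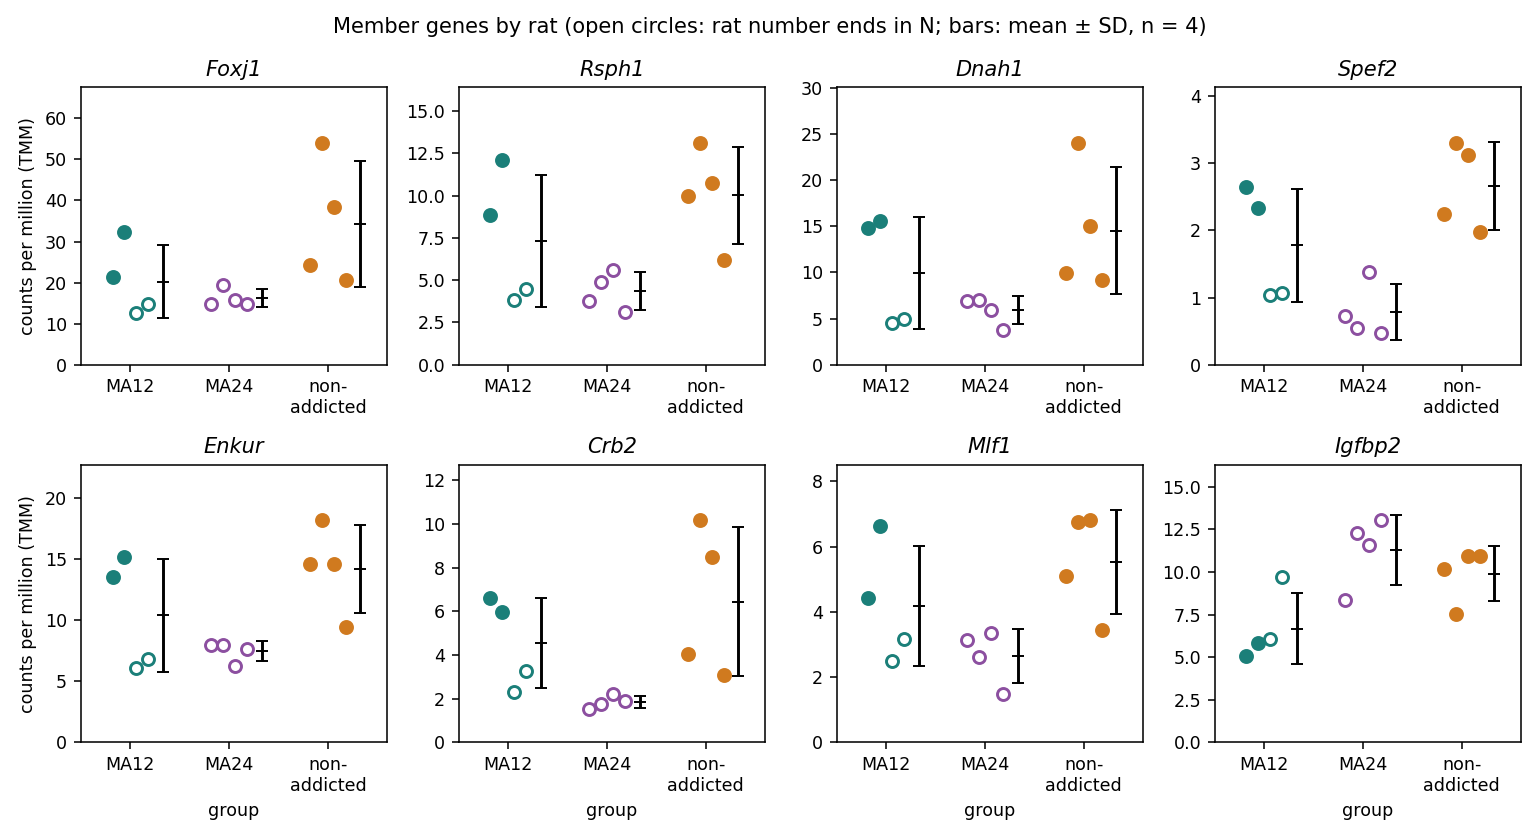
CPM after TMM scaling (vertical axes from 0, linear) in each rat for 8 members in MA12, MA24 and non-addicted rats, with open circles for rats whose number ends in N and black bars for the mean ± SD (n = 4). The 7 ciliary genes shown are those of the 20 tested in which all 4 non-addicted rats lie above all 4 MA24 rats. In the other ciliary genes tested these groups overlap. MA12 rats 21 and 31 lie above MA12 rats 4N and 7N in each of the 7. In *Igfbp2* the order differs, with 3 MA24 rats above every other rat.

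MA24 vs. MA12 asks how the striatum differs between 12 h and 24 h of abstinence. Ciliary genes were on balance lower at 24 h, but only *Crb2* passed. Of 20 tested, 16 had a log2 fold change below 0, and the median was -0.46 (-1.30 to 0.27) against -0.02 over all 10754 genes tested. *Crb2* fell to 0.406 of its MA12 level (log2 fold change -1.30, SE 0.32, adjusted p = 0.0266, edgeR). Past the threshold were 1 of 20 ciliary genes and 1 of 7 choroid plexus genes, against 2.45% of all genes tested. An unadjusted p below 0.05 was reached by 7 of the 20 ciliary genes (35%) against 23.6% of all genes, and in 2 of the 20 (*Crb2* and *Rfx3*) all MA24 rats were below all MA12 rats, against 8.40% of all genes that did not overlap in this direction.

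The choroid plexus gene that passed was *Igfbp2*, an insulin-like growth factor binding protein that other brain cells also make, and it went the other way. It stood at 5.05, 5.85, 6.07 and 9.71 CPM in MA12 rats 21, 31, 4N and 7N, at 8.34, 12.3, 11.6 and 13.0 CPM in MA24 rats 9N, 14N, 15N and 16N, and at 10.2, 7.54, 11.0 and 10.9 CPM in non-addicted rats 9, 11, 12 and 13. MA12 rat 7N lay above MA24 rat 9N, so the groups overlapped. *Igfbp2* rose 1.70-fold at 24 h (log2 fold change 0.77, SE 0.21, adjusted p = 0.0404, edgeR). Both calls were lost when MA12 rat 21, MA12 rat 31, MA24 rat 14N or MA24 rat 16N was left out, and that of *Igfbp2* also without MA12 rat 4N, without MA24 rat 15N, without the variance filter and without any filter.

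The direction of the ciliary difference in MA24 vs. MA12 depended on the 2 MA12 rats without N. Among rats with N alone (MA12 rats 4N and 7N against 4 MA24 rats), the median of the ciliary genes turned to 0.28, with 14 of 20 above 0, and with the kind of number as a covariate it was 0.26. No member passed in either fit, and *Crb2* kept its sign (-0.58 to -1.52 over all alternatives), whereas *Foxj1*, *Dnah1*, *Rsph1* and *Enkur* changed sign.

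In non-addicted vs. MA12 no member passed the threshold (edgeR, 0 of 20 ciliary and 0 of 8 choroid plexus genes, against 0.251% of all 10758 genes tested). DESeq2 called none either, and edgeR's likelihood ratio test called 1 (*Ttr*). *Ttr* also passed without non-addicted rat 13, and *Igfbp2* without MA12 rat 7N. Of the 20 ciliary genes 19 had a log2 fold change above 0, with a median of 0.44 (-0.05 to 0.75) against -0.01 over all genes. An unadjusted p below 0.05 was reached by 3 of 20 (*Foxj1*, *Ccdc39* and *Tekt1*, 15%), near the 12.3% of all genes. Of the 8 choroid plexus genes 3 had an unadjusted p below 0.05. No ciliary gene was free of overlap between the groups, against 7.10% of all genes. Against MA12 rats 21 and 31 alone, both numbered without N like the non-addicted rats, the median of the ciliary genes was 0.05, with 13 of 20 above 0. The 3 comparisons share their groups pairwise, so their fold changes are not independent of each other.

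**Figure D3:**
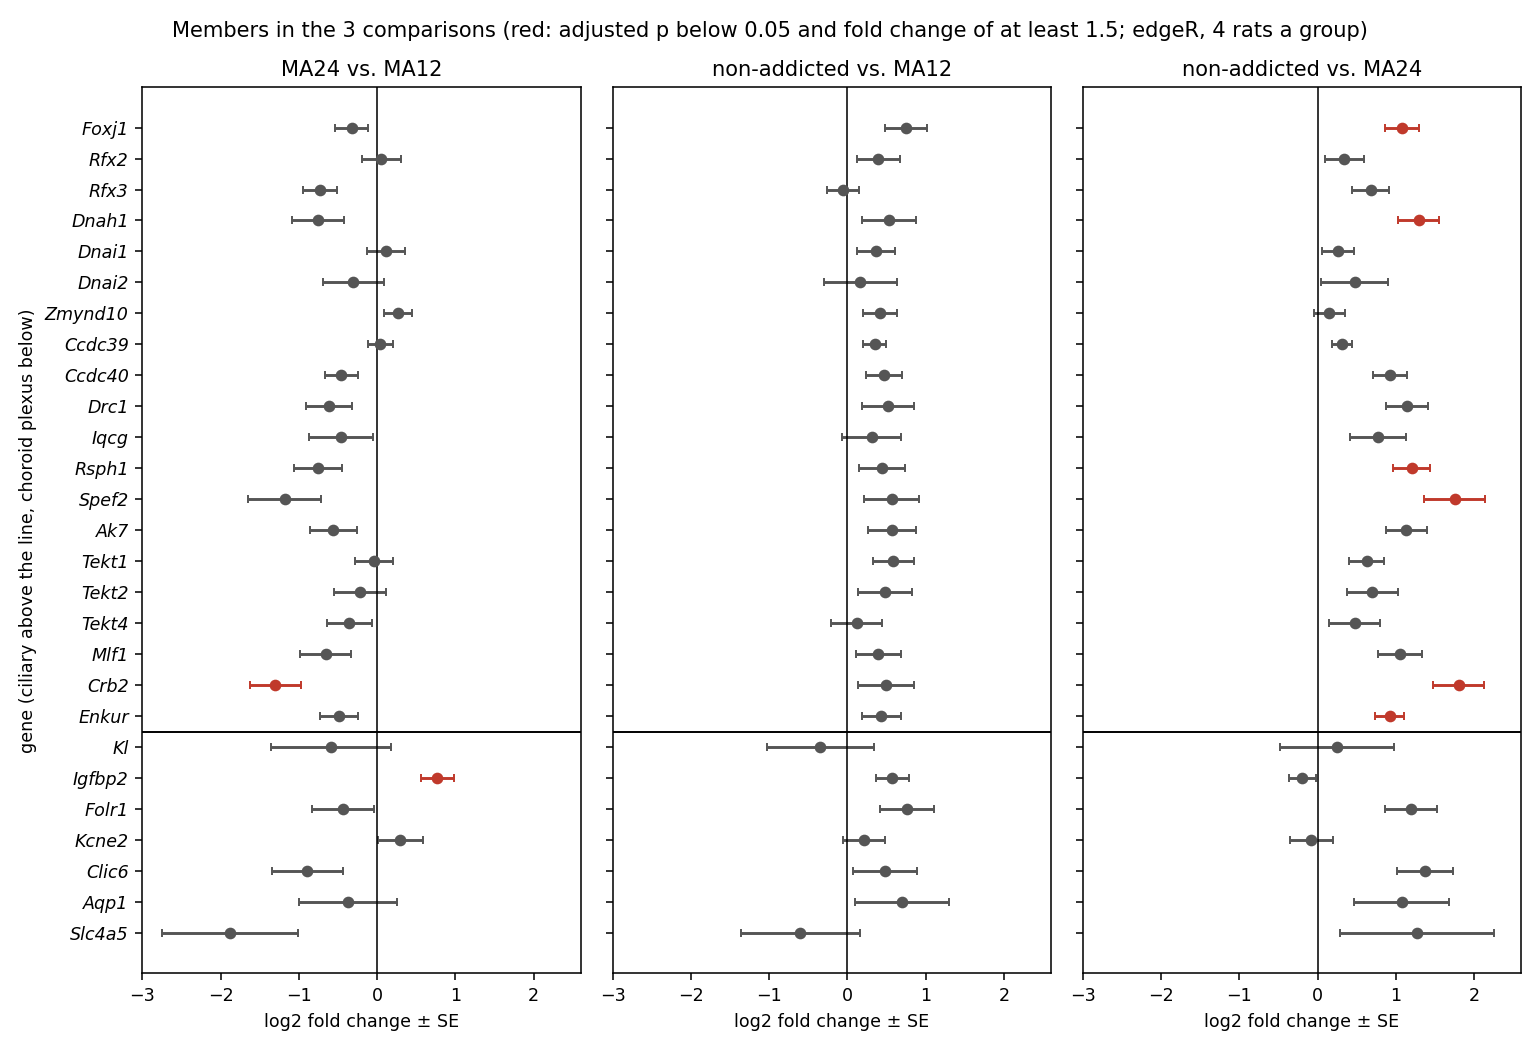
Log2 fold change ± SE (horizontal axes, edgeR, 4 rats a group) of 27 members (rows, ciliary genes above the line and choroid plexus genes below, *Ttr* left out) in the 3 comparisons. Red points passed the threshold: *Crb2* and *Igfbp2* in MA24 vs. MA12, none in non-addicted vs. MA12, and 6 ciliary genes in non-addicted vs. MA24, where all 20 ciliary points are right of 0.

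The mean of the 8 choroid plexus genes with a mean count above 4 had an r of 0.684 with the ciliary mean over the 12 libraries, while the single genes differed widely. Their median log2 fold change was 1.14 in non-addicted vs. MA24, 0.53 in non-addicted vs. MA12 and -0.43 in MA24 vs. MA12 (7 genes), and 3 of 8, 3 of 8 and 2 of 7 had an unadjusted p below 0.05, against 17.5%, 12.3% and 23.6% of all genes. These medians include genes with few counts. Among the 4 with at least 10 counts in every library, the medians in the same order were 0.56, 0.52 and -0.07. Of these 4 genes 2, 4 and 2 were above 0. *Folr1* had 3.02, 5.47, 6.23 and 3.54 CPM in non-addicted rats 9, 11, 12 and 13, 3.20, 3.89, 0.988 and 2.65 CPM in MA12 rats 21, 31, 4N and 7N, and 2.45, 3.01, 1.39 and 1.06 CPM in MA24 rats 9N, 14N, 15N and 16N. The log2 fold change in non-addicted vs. MA24 was 1.20 (SE 0.33, adjusted p = 0.0977, edgeR). *Clic6* had 2.66, 4.39, 2.67 and 1.87 CPM in the non-addicted rats, 2.78, 3.55, 1.13 and 0.734 CPM in the MA12 rats and 1.08, 1.08, 1.59 and 0.686 CPM in the MA24 rats, with a log2 fold change of 1.37 in the same comparison (SE 0.36, adjusted p = 0.0826, edgeR). Both genes were free of overlap between non-addicted and MA24 rats and neither passed.

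*Ttr*, the carrier of thyroid hormone in cerebrospinal fluid, was a matter of single rats. Its counts were 329, 1, 17 and 0 in non-addicted rats 9, 11, 12 and 13, 6, 0, 0 and 0 in MA12 rats 21, 31, 4N and 7N, and 0, 0, 1 and 6 in MA24 rats 9N, 14N, 15N and 16N. Non-addicted rat 9 alone held more counts than all other libraries together, and its ciliary mean was only the fifth highest. The fitted difference was not past the threshold in non-addicted vs. MA12 (adjusted p = 0.104, edgeR) or in non-addicted vs. MA24 (adjusted p = 0.0807), and no fold is given because it would rest on that rat. *Kcne2*, a potassium channel subunit, was the steadiest choroid plexus gene, with 38 to 70 counts per rat and a 1.72-fold range of CPM, and passed in no comparison. *Aqp1*, a water channel, had 3 to 24 counts, the Klotho gene *Kl* 1 to 17 and the bicarbonate transporter gene *Slc4a5* 0 to 25, too few for more than a coarse comparison, and none passed. *Otx2*, *Prlr*, *Sostdc1* and *Spag16* had mean counts of 4 or less in every comparison and were not tested, and neither was *Ttr* in MA24 vs. MA12.

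Lists of related genes, chosen like the members with earlier results of these data known, were set beside the members. Of 113 other genes of motile cilia, 57 are in the table, and in non-addicted vs. MA24 48 of the 55 tested had a log2 fold change above 0 (median 0.57). Only *Rsph10b*, a radial spoke protein (1.34, SE 0.23, adjusted p = 0.0241, edgeR), and *Dnali1*, an inner arm dynein chain (0.95, SE 0.19, adjusted p = 0.0354), passed, and 25 of 55 (45.5%) had an unadjusted p below 0.05, against 17.5% of all genes. *Rsph10b* was also lower in MA24 than in MA12 (-1.07, SE 0.27, adjusted p = 0.0276, edgeR), where *Iqub* was higher (0.60, SE 0.17, adjusted p = 0.0488). These were 2 of the 53 tested in MA24 vs. MA12, against 2.45% of all genes. Of the 53, 37 were below 0 (median -0.20), and 4 (7.55%) had an unadjusted p below 0.05, against 23.6% of all genes. No gene of this list passed in non-addicted vs. MA12, where 7 of 55 had an unadjusted p below 0.05 (12.7%, against 12.3% of all genes). Over the 12 libraries the mean of this list had an r of 0.976 with the ciliary members. Genes of primary cilia and of intraflagellar transport, which most brain cells have, differed by smaller amounts. In non-addicted vs. MA24, 32 of the 38 tested were above 0. In 6 of the 38 all non-addicted rats were above all MA24 rats, against 5.10% of all genes. Over the 12 libraries the mean of this list had an r of 0.770 with the ciliary members. None of the 34, 39 and 38 tested passed in MA24 vs. MA12, non-addicted vs. MA12 and non-addicted vs. MA24, with medians of -0.05, 0.12 and 0.15 and with 4, 4 and 8 at an unadjusted p below 0.05 (11.8%, 10.3% and 21.1%, against 23.6%, 12.3% and 17.5% of all genes).

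Of 41 other choroid plexus genes 38 are in the table, many of which other brain cells also make, and their mean stayed between -0.20 and 0.09 over the 12 rats. The organic anion transporter gene *Slc22a8* passed in non-addicted vs. MA24, with a lower level in non-addicted rats (-0.63, SE 0.14, adjusted p = 0.0443, edgeR), and the median over the 27 tested was -0.02. In MA24 vs. MA12 and non-addicted vs. MA12 none passed. An unadjusted p below 0.05 was reached by 1 of 27 and 4 of 29 (3.70% and 13.8%), against 23.6% and 12.3% of all genes. Counts differed widely between single genes of this list. There were at most 10 counts of *Kcnj13*, 6 of *Cldn2* and 5 of *F5* in any library. *Tmem72* had 3 to 20 counts, *Calml4* 13 to 67, *Slc13a4* 50 to 139 and *Msx1* 66 to 219.

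Lists of markers of other cells were set beside the ciliary genes. Genes of the subventricular zone, the neurogenic layer under the ependyma, had means per rat with an r of 0.840 to those of the ciliary members. Their summed level was 666 to 734 CPM in non-addicted rats, 635 to 844 CPM in MA12 rats and 685 to 695 CPM in MA24 rats, none of the 14 was at 0 in all libraries, and 12 of 13 tested were above 0 in non-addicted vs. MA24 (median 0.61, none past the threshold, 9 at an unadjusted p below 0.05, against 17.5% of all genes). In MA24 vs. MA12 11 of the 14 were below 0 (median -0.48), and 8 (57.1%) had an unadjusted p below 0.05, against 23.6% of all genes. The growth factor receptor gene *Egfr*, the only 1 of the 14 to pass there, fell by 0.98 (SE 0.21, adjusted p = 0.0146, edgeR). Endothelial genes had an r of -0.657. They summed to 400 to 530 CPM in non-addicted rats, 506 to 634 CPM in MA12 rats and 597 to 646 CPM in MA24 rats. In non-addicted vs. MA24 all 8 tested were below 0 and at an unadjusted p below 0.05, against 17.5% of all genes. The groups did not overlap in 4 of the 8, against 526 of all 10744 genes in this direction. *Cldn5* (-0.68) and *Kdr* (-0.85) passed the threshold there, against 0.456% of all genes. In non-addicted vs. MA12 *Kdr* (-1.08) passed, and 3 of 8 had an unadjusted p below 0.05, against 0.251% and 12.3% of all genes. Mural and meningeal genes had an r of -0.206 and summed to 116 to 140 CPM in non-addicted rats, 169 to 234 CPM in MA12 rats and 147 to 180 CPM in MA24 rats, with *Col1a2* at 0 in all libraries. All 10 tested were below 0 in non-addicted vs. MA12 and in non-addicted vs. MA24. An unadjusted p below 0.05 was reached by 8 and 5 of them, against 12.3% and 17.5% of all genes. In non-addicted vs. MA12 the groups did not overlap in 6 of the 10, against 387 of all 10758 genes in this direction. *Tagln* (-0.83) and *Acta2* (-0.81) passed there. *Rgs5* (-0.72) passed in MA24 vs. MA12.

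Genes of oligodendrocytes and of striatal projection neurons were lower where ciliary genes were higher. The mean of 10 projection neuron genes had an r of -0.871 with the ciliary mean over the 12 libraries, and its own range was small, from -0.23 in non-addicted rat 11 to 0.20 in MA12 rat 7N. Their summed level was 13973 to 16959 CPM in non-addicted rats, 14164 to 18102 CPM in MA12 rats and 16688 to 18445 CPM in MA24 rats, and none was at 0. The mean of 8 oligodendrocyte genes had an r of -0.748, and all 8 were below 0 in non-addicted vs. MA24 (median -0.36). None of the 8 passed the threshold there, and 7 had an unadjusted p below 0.05 (87.5%, against 17.5% of all genes). They summed to 12101 to 17957 CPM in non-addicted rats, 12653 to 22486 CPM in MA12 rats and 18701 to 22068 CPM in MA24 rats, and none was at 0. Markers of neighbouring regions had an r of 0.587, with *Pmch* at 0 in all libraries, and summed to 54.4 to 138 CPM in non-addicted rats, 60.9 to 112 CPM in MA12 rats and 53.5 to 73.6 CPM in MA24 rats. The highest sums were those of non-addicted rat 11 (138 CPM), MA12 rats 21 (112 CPM) and 31 (94.4 CPM) and non-addicted rat 12 (80.9 CPM). These rats also had the highest ciliary means. The mean of centred log2 CPM of these markers ordered the rats otherwise, with MA12 rat 31 at -0.08. The part of these other cells, or of the piece of tissue taken, in the ciliary differences was not tested. Of the lists not yet described, *Slc1a2* (astrocytes, -0.70) and *Prkcd* (neighbouring regions, -0.95) passed in MA24 vs. MA12, *Pdyn* (projection neurons, -0.65) passed in non-addicted vs. MA12, and no microglial gene passed in any comparison, with 2, 1 and 2 of 8 (25%, 12.5% and 25%) at an unadjusted p below 0.05 in MA24 vs. MA12, non-addicted vs. MA12 and non-addicted vs. MA24, against 23.6%, 12.3% and 17.5% of all genes. The r with the ciliary mean was -0.336 for astrocyte and -0.396 for microglial genes.

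**Figure D4:**
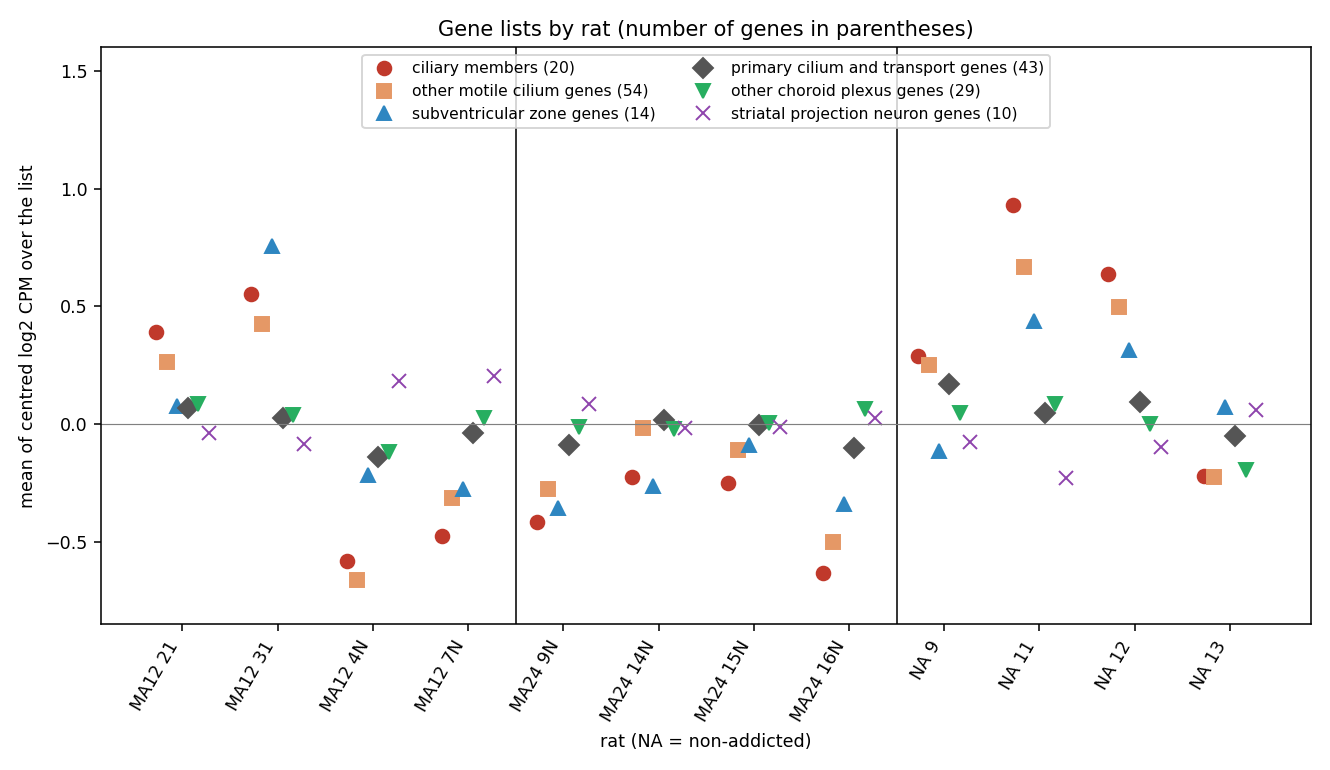
Mean of centred log2 CPM (vertical axis) over 6 gene lists in each rat (horizontal axis, MA12, MA24 and non-addicted from left to right), with the number of genes in parentheses. The ciliary members (0.93 in non-addicted rat 11, -0.63 in MA24 rat 16N) and the other motile cilium genes have the same sign in every rat, the subventricular zone genes follow in part, and the primary cilium and other choroid plexus genes stay near 0.

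The genes outside the set that were most like it were found over the 12065 other genes with a mean count of at least 10, by r with the ciliary mean over the 12 libraries. Among the 15 highest were *Spata18* (0.965), *LOC680885*, *LOC690276*, *RGD1564114*, *Smoc2*, *Tmem212*, *Ccdc153*, *Efcab1*, *Hap1*, *Armc3*, *Nnat*, *Dnali1*, *Ccdc146* and *Gprasp1* (0.936). Of the genes named, 5 are on the list of other motile cilium genes. *Hap1*, which encodes huntingtin-associated protein 1, *Nnat*, which encodes the imprinted protein neuronatin, and *Gprasp1*, a receptor sorting protein, are expressed in neurons, and their ranges over the 12 rats were 77.0 to 270.5 CPM, 162 to 468 CPM and 189 to 350.4 CPM.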

How the data were processed

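According to the labels and the study's methods, poly-A RNA of whole striatum was sequenced, and the authors' reads passed through cutadapt 1.18 for trimming, STAR 2.7.0e for alignment to rn6 and featureCounts for counts per gene. HTSeq 0.12.4 is also named in the submitters' processing notes. The deposited values are raw counts, without normalization. The strand and multimapping settings of the counting are not given in the sources used here, so genes that overlap or have near-identical copies are uncertain. All 12 columns were used and grouped by their labels.

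Each comparison used the genes whose mean over its 8 libraries exceeded 4 counts, less the 15% whose log2 CPM varied least, and the counts were compared with edgeR 4.0.16 (TMM, glmQLFit and glmQLFTest, R 4.3.3) with only the 2 groups in the fit. Benjamini-Hochberg adjustment ran over all 10754, 10758 and 10744 genes tested. The way the 2 filters were applied is a reading of the study's methods. The fit was tested on simulated counts, in which the share of false calls was above the nominal level with the variance filter and below it without. Log2 CPM had a prior count of 2. Per-rat values were given for members past the threshold in any comparison, for *Foxj1* and *Ttr*, and for members with a mean count of at least 20 whose groups did not overlap. Other lists were described by counts, with the genes past the threshold named. Of the genes outside the set, those among the 15 most like its ciliary mean were named, except 1 that is not reported here. The members and lists were chosen with earlier results of these data known. As alternatives, each rat was left out, rats of one kind of number were used alone, filters were changed, the third group was added to the fit, and DESeq2 1.42.0, RLE scaling and edgeR's likelihood ratio test replaced the main choices. Tables and figures were made with Python, numpy, pandas and matplotlib.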

Additional observations from a re-analysis of the deposited data

Results flagged for a closer look

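Within the groups of 4 rats, 84 sets of log2 CPM values (28 members in each of 3 groups) were examined for a rat whose gap to its neighbour exceeded Dixon's critical value as a share of the group's range, and 5 stood apart, where chance alone gives about 4.2. *Rfx3* was low in MA24 rat 14N, with 70 counts against 126 to 143 in the other MA24 rats (ratio 0.845). *Zmynd10* was low in MA24 rat 9N, with 289 counts against 330 to 361 (ratio 0.938). *Ttr* was high in MA12 rat 21, with 6 counts against 0 in the other MA12 rats (ratio 1). With those rats tied at 0, any count above 0 gives this ratio, and the chance figure does not allow for ties. *Aqp1* had only 4 counts in MA12 rat 31, where the other MA12 rats had 12 to 16 (ratio 0.854). In non-addicted rat 13 it had 3 counts, where the others of that group had 22 to 24 (ratio 0.913). No one rat stood apart in more than a single member within a group. The 329 counts of *Ttr* in non-addicted rat 9 did not meet this rule, because the other 3 rats of the group also differed on the log2 scale.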

How the results depend on the processing

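In non-addicted vs. MA24, where 6 members passed, 11 passed with DESeq2, 13 with the likelihood ratio test, 1 with variance ranked without TMM (chosen after seeing the data), and 0 without any filter, without the variance filter or with all 3 groups in the fit. Leaving out each rat gave 0 to 14, and all genes past the threshold ranged from 0 to 187 (49 as reported). In MA24 vs. MA12 the count of 2 became 3 with DESeq2 and with the likelihood ratio test, 1 without any filter or without the variance filter, 0 among rats with N only and 0 with the kind of number as a covariate, and 0 to 3 with a rat left out, while all genes ranged from 47 to 436 (264 as reported). In non-addicted vs. MA12 the count of 0 became 1 with the likelihood ratio test, and 0 to 1 with a rat left out, while all genes ranged from 5 to 93 (27 as reported). With fewer genes filtered more are tested, and the cause of the other changes was not tested. In MA24 vs. MA12, log2 fold changes turned to 0.34 and 0.32 (*Dnah1*), 0.22 and 0.20 (*Enkur*), 0.26 and 0.24 (*Foxj1*) and 0.083 and 0.068 (*Rsph1*) among rats with N only and with the kind of number as a covariate. In non-addicted vs. MA12 those of *Dnah1* (-0.053), *Enkur* (-0.003) and *Rsph1* (-0.047) turned among rats without N only. In non-addicted vs. MA24 the sign of all 6 genes past the threshold held under every alternative run. In these genes every non-addicted rat was above every MA24 rat, so leaving out a rat could hardly turn a sign. Fits by kind of number were not possible in this comparison, because the kind of number coincides with the group. No paired analysis was possible because the groups share no rat numbers. Members with few counts per library, such as *Spef2*, *Aqp1* and *Slc4a5*, could be compared only coarsely at this depth.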
